A study of Oryza sativa Japonica Group with 3 samples.

Results

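The metallothionein family of rice was followed through the first 48 h of germination. Its 10 loci were taken from a list of metallothionein locus IDs, and all 10 were found among the 55986 loci of the deposited tables. RNA came from seeds of Jiucaiqing, a japonica landrace, imbibed in distilled water at 30 °C: dry seed at 0 h, imbibed seed at 24 h and germinated seed at 48 h. Each stage was 1 poly(A) library in which 3 biological replicates had been combined, so no replicate error exists, no p-value is given, and each difference is one between single libraries. Levels are FPKM, a fragment count divided by transcript length and library total, summed over the isoforms of a locus, and read totals are unknown. The chromosome of a locus is the one its ID states.

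Metallothioneins are very small proteins rich in cysteine, whose thiol groups bind zinc and copper and also toxic cadmium. Plants carry several types that differ in how the cysteines are arranged, and besides holding metal ions these proteins can scavenge reactive oxygen species. In wheat, a zinc-binding metallothionein was first isolated from the mature embryo, and the family is therefore familiar in cereal seeds. Which type each rice locus encodes is not given in the sources used here, so the members are described by ID and by level.

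The family changed its leading transcript during imbibition. LOC_Os01g05650 on chromosome 1 was the most abundant member of the dry seed, and LOC_Os05g02070 on chromosome 5 was the most abundant at both later stages. LOC_Os01g05650 was at 19003 FPKM in dry seed, 4253 FPKM after 24 h and 1328 FPKM after 48 h. LOC_Os05g02070 was at 9621 FPKM in dry seed, 12028 FPKM after 24 h and 14503 FPKM after 48 h. LOC_Os01g05650 was lower at each step and LOC_Os05g02070 higher at each.

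The ratio of these loci within a library does not depend on how the libraries were scaled. LOC_Os01g05650 over LOC_Os05g02070 was 1.98 at 0 h, 0.354 at 24 h and 0.0916 at 48 h. The dry seed thus held more of the chromosome 1 transcript per unit length, whereas in the germinated seed the chromosome 5 transcript was at 10.9 times the level of the chromosome 1 transcript. In whole seeds, fewer cells of a type and less RNA per cell cannot be told apart.

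Both transcripts were among the most abundant of the whole seed. By FPKM rank among all loci, LOC_Os01g05650 stood 4th at 0 h, 11th at 24 h and 19th at 48 h. LOC_Os05g02070 stood 10th at 0 h and 3rd in both later libraries. Of all FPKM in a library, LOC_Os01g05650 held 2.16% in dry seed, 0.733% after 24 h and 0.248% after 48 h. The share of LOC_Os05g02070 was 1.09%, 2.07% and 2.71% at the same times, so it was higher at each step by share as well as by FPKM. Its FPKM was only 1.25 and 1.21 times the earlier value at these steps. Of the loci that reached 1 FPKM in any library, 38.6% and 38.4% were higher by as much or more on log2(FPKM + 1). The share also depends on the summed FPKM of all loci, which was lower at each step.

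**Figure D1:**
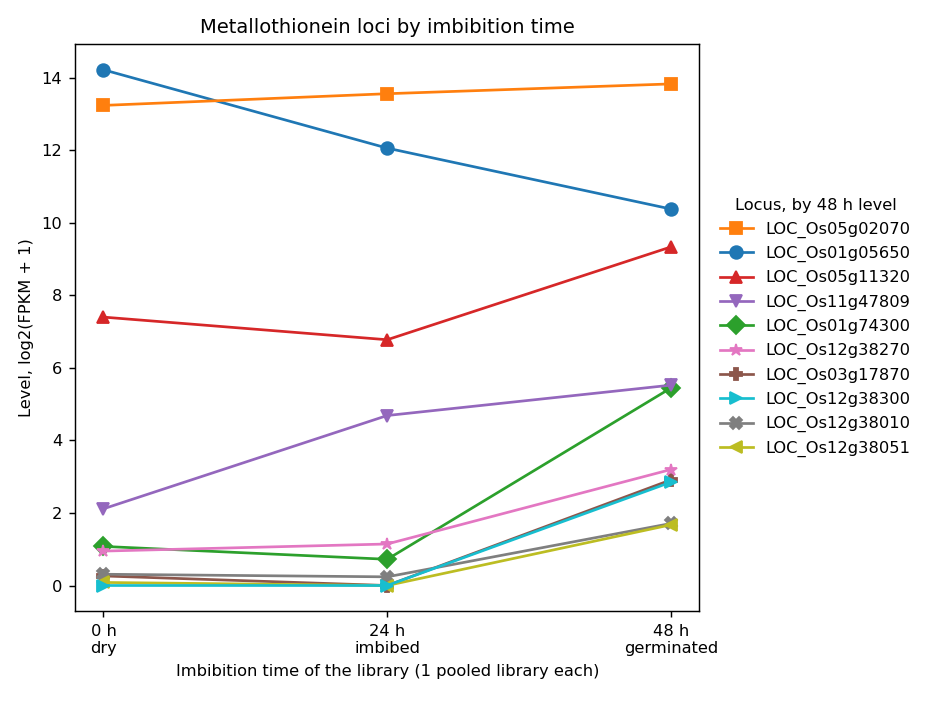
Level of the 10 metallothionein loci as log2(FPKM + 1) on the y axis, against the imbibition time of each single pooled library on the x axis. Each line is a locus; the lines of LOC_Os01g05650 and LOC_Os05g02070 cross between 0 h and 24 h, and 9 of the 10 loci have their highest point at 48 h.

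Summed over the 10 loci, metallothionein transcripts reached 28797 FPKM in dry seed, 16416 FPKM after 24 h and 16587 FPKM after 48 h. On log2(FPKM + 1), the scale used for every difference here, the sum differed by -0.81 for 24 h versus dry seed, by 0.01 for 48 h versus 24 h and by -0.80 for 48 h versus dry seed. None of these reached the 2-fold rule (a difference of 1 on that scale) by which a locus is called higher or lower. As a share of all FPKM the family was nearly level, with 3.27% in dry seed, 2.83% after 24 h and 3.10% after 48 h.

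The sums at 24 h and 48 h rested mostly on LOC_Os05g02070. Without it the other 9 loci summed to 19177 FPKM in dry seed, 4388 FPKM after 24 h and 2084 FPKM after 48 h, a log2 difference of -1.07 for 48 h versus 24 h and of -3.20 for 48 h versus dry seed. LOC_Os01g05650 made up 66.0% of the family's FPKM in dry seed, 25.9% after 24 h and 8.01% after 48 h. The 8 less abundant loci together made up 0.602%, 0.823% and 4.56% of it.

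**Figure D2:**
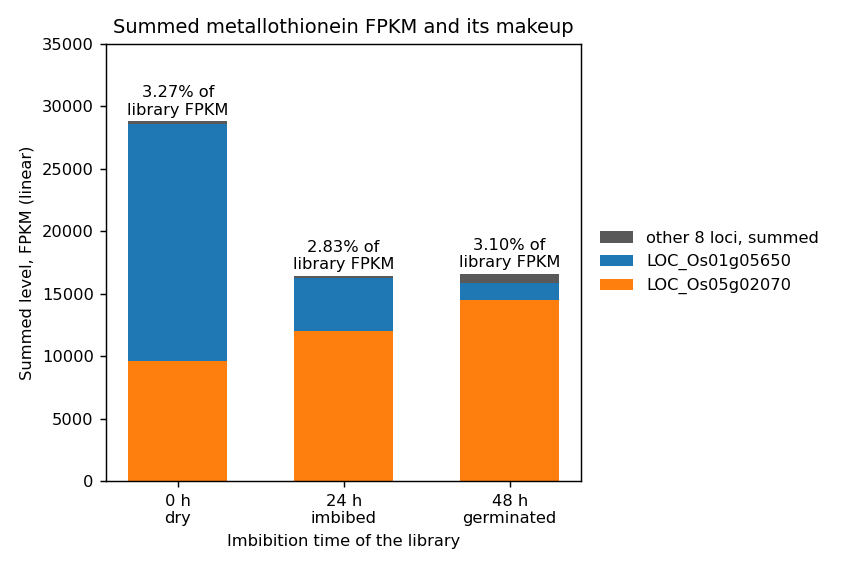
Summed FPKM of the metallothionein loci on a linear y axis starting at 0, for the libraries at 0, 24 and 48 h, with each bar divided into LOC_Os05g02070, LOC_Os01g05650 and the other 8 loci. The bars reach 28797, 16416 and 16587 FPKM, and the text above each gives the share of all FPKM in that library.

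The scaling of the libraries bears on these comparisons. The summed FPKM of all loci was 881252 at 0 h, 580571 at 24 h and 535327 at 48 h, and giving all libraries the same sum adds 0.60 to each log2 ratio of 24 h to 0 h and 0.72 to each of 48 h to 0 h. Over loci that reached 1 FPKM in any library, the median difference then moved to 0.45 from 0.06 for 24 h versus dry seed. For 48 h versus dry seed it moved to 0.75 from 0.18. Such loci numbered 20915 as deposited and 21193 with equal sums. LOC_Os01g05650 differed by -3.84 for 48 h versus dry seed as deposited and by -3.12 with equal sums, 2-fold lower or more either way. LOC_Os05g02070 differed by 0.59 as deposited and by 1.31 with equal sums, so its call as at least 2-fold higher at 48 h depended on the scaling. Leaving LOC_Os09g00999, the most abundant locus of every library, out of that sum gave -2.87 and 1.56 for these loci. The median over loci that reached 1 FPKM was then 0.93. Rescaling by the median or by the trimmed mean of log ratios instead gave 0.67 for LOC_Os05g02070, under 2-fold in both cases. Both gave -3.76 for LOC_Os01g05650 and 0.25 for the median over loci that reached 1 FPKM.

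Below the leading loci and above the other members in every library came LOC_Os05g11320, also on chromosome 5. It was at 168 FPKM in dry seed, 108 FPKM after 24 h and 643 FPKM after 48 h. The germinated seed held 5.93 times the FPKM of the 24 h seed, a log2 difference of 2.56, and of the 20915 loci kept (those that reached 1 FPKM in any library) 1.59% differed as much or more in that direction. Its rank among all loci was 597th at 0 h, 643rd at 24 h and 47th at 48 h. Relative to LOC_Os01g05650 in the same library, its level was 0.00882 times at 0 h, 0.0255 times at 24 h and 0.484 times at 48 h. The gap between these members was thus 2.06-fold in the germinated seed, against 113-fold in the dry seed.

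LOC_Os01g74300, on chromosome 1, was low until 24 h and then stood out. It was at 1.11 FPKM in dry seed, 0.65 FPKM after 24 h and 42.5 FPKM after 48 h. For 48 h versus 24 h its log2 difference was 4.72, and 0.110% of all kept loci were higher by as much or more. The plain ratio of those FPKM values was 65.4, but it rests on a value under 1 FPKM whose counting error is unknown.

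LOC_Os11g47809, on chromosome 11, was the member that was at least 2-fold higher already at 24 h. It was at 3.33 FPKM in dry seed, 24.7 FPKM after 24 h and 45.0 FPKM after 48 h. Its log2 difference was 2.57 for 24 h versus dry seed and 0.84 for 48 h versus 24 h. At 48 h it lay close to LOC_Os01g74300, although at 24 h the levels of these loci had been 24.7 and 0.65 FPKM. The second step passed 2-fold under 1 of 4 rescalings, with 1.12 when the sum was equalised without LOC_Os09g00999.

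The other 5 members lay between 0 and 1.21 FPKM in dry seed and after 24 h. LOC_Os03g17870 on chromosome 3 was at 0.20 FPKM at 0 h, was listed at 0 at 24 h and was at 6.52 FPKM at 48 h. A value listed at 0 can be a failed estimate, so no fold is given against it. Of all loci in the tables, 43.0% were listed at 0 at 0 h, 46.0% at 24 h and 40.6% at 48 h.

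The 4 members on chromosome 12 have IDs within a single run of that chromosome. Reads may be shared between near-identical copies, which was not tested here for want of sequences, so their single values are uncertain. LOC_Os12g38270 was the highest of them, at 0.93 FPKM in dry seed, 1.21 FPKM after 24 h and 8.17 FPKM after 48 h. LOC_Os12g38300 was listed at 0 in dry seed and after 24 h and was at 6.20 FPKM at 48 h. LOC_Os12g38010 was at 0.24, 0.18 and 2.27 FPKM at 0, 24 and 48 h. LOC_Os12g38051 was at 0.06 FPKM at 0 h, was listed at 0 at 24 h and was at 2.19 FPKM at 48 h. Each of them had its highest value in the germinated seed. Summed, these loci were at 1.23 FPKM in dry seed, 1.39 FPKM after 24 h and 18.8 FPKM after 48 h. Summing removes a division of reads among them only if their transcript lengths are alike, which was not tested. It does not cover reads shared with other loci. The log2 difference of that sum was 3.05 for 48 h versus 24 h and 0.10 for 24 h versus dry seed.

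The stretch of chromosome 12 between these members held loci of several patterns. The tables list 27 loci with IDs from LOC_Os12g38010 to LOC_Os12g38300, of which 23 are not members. Of those 23, 7 reached 1 FPKM in a library, and at 48 h versus 24 h 2 of the 7 were higher by 2-fold or more and 1 was lower. The other 16 stayed under 1 FPKM in all 3 libraries. LOC_Os12g38140, whose function the files do not state, was at 254 FPKM in dry seed, 44.1 FPKM after 24 h and 154 FPKM after 48 h. LOC_Os12g38110 was at 16.4, 101 and 91.4 FPKM at 0, 24 and 48 h. LOC_Os12g38150 was at 86.4, 72.9 and 115 FPKM at those times. These 3 unnamed neighbours were the only ones of the run to reach 100 FPKM in a library, and they stood well above every member there.

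**Figure D3:**
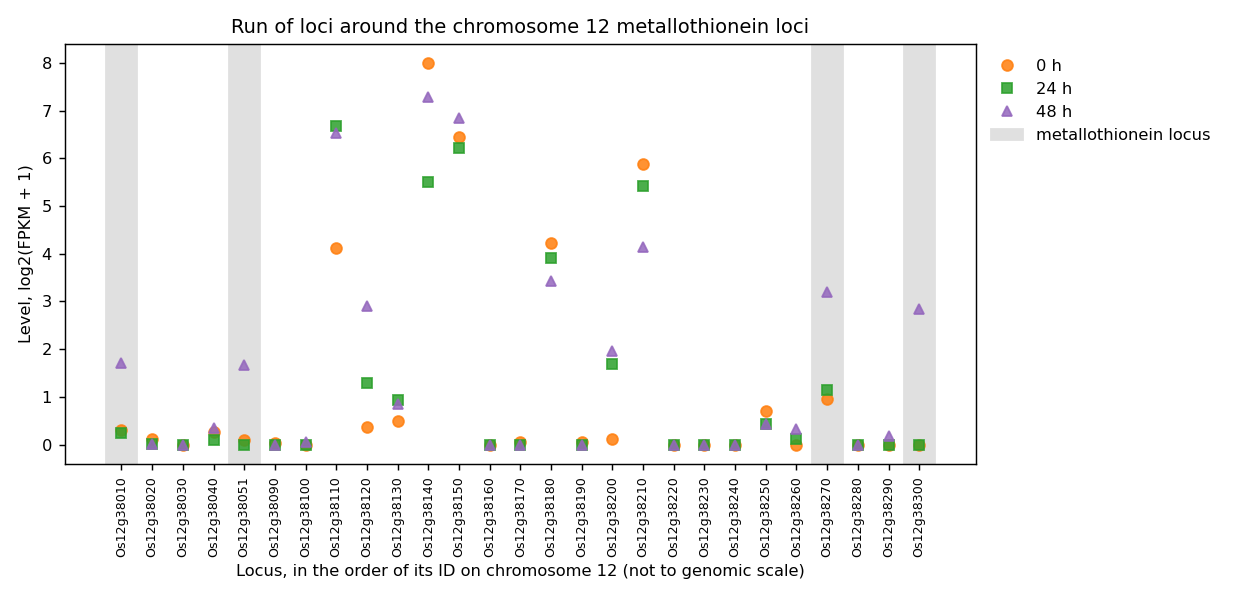
Level as log2(FPKM + 1) of the 27 loci with IDs from LOC_Os12g38010 to LOC_Os12g38300, in the order of their IDs on the x axis, with 1 marker per library at 0, 24 and 48 h and the 4 metallothionein loci shaded. In each shaded column the 48 h marker lies above the other two, while the high neighbours show several different orders.

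By the 2-fold rule, few members differed over the first day and most differed over the second, but for 4 members the first-day outcome was fixed. For 24 h versus dry seed, 1 of 10 members, LOC_Os11g47809, was at least 2-fold higher, against a background of 17.7% of the kept loci. In the same comparison 1 of 10, LOC_Os01g05650, was at least 2-fold lower, against a background of 15.4%. These shares are near the background, but not every member could be called. LOC_Os03g17870, LOC_Os12g38010, LOC_Os12g38051 and LOC_Os12g38300 were under 1 FPKM in both libraries. On log2(FPKM + 1) such values cannot differ by 2-fold. Of the other 6 members, 1 was higher and 1 lower at this step, beside 3 higher and 1 lower for 48 h versus 24 h. With equal sums leaving out LOC_Os09g00999, LOC_Os05g02070 also passed as higher, which made 2 higher and 1 lower. The background moved as well, to 6297 higher and 1577 lower of the 21463 loci kept under that scaling. The sign of the small differences of LOC_Os05g11320 and LOC_Os12g38010 at this step changed between scalings.

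For 48 h versus 24 h, 7 of 10 members were at least 2-fold higher, against 13.8% of all kept loci. LOC_Os01g05650 alone was lower by that rule, where the background was 10.9%. The median log2 difference of the members was 1.86, beside 0.02 over all kept loci, but 4 members entered only through their 48 h value and over the other 6 the median was 1.45. The 7 were LOC_Os01g74300, LOC_Os05g11320, LOC_Os03g17870 and the 4 chromosome 12 members, and 3 of them (LOC_Os03g17870, LOC_Os12g38051 and LOC_Os12g38300) were listed at 0 at 24 h. With the chromosome 12 members taken as 1 unit, 4 of 7 units were higher, beside 2880 of all 20912 units kept.

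For 48 h versus dry seed, 8 of 10 members were at least 2-fold higher, against 27.5% of all kept loci, and 1 of 10 was lower, against 20.4%. The median log2 difference of the members was 2.09, beside 0.18 over all kept loci, and over the same 6 it was 2.09 as well. LOC_Os05g02070 was the member under 2-fold as deposited. Members that reached 1 FPKM numbered 5 of 10 in dry seed, 5 after 24 h and all 10 after 48 h. Over all loci of the tables the shares that did so were 29.2%, 30.8% and 33.7% at those times.

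Part of these counts and medians follows from the filter. LOC_Os03g17870, LOC_Os12g38010, LOC_Os12g38051 and LOC_Os12g38300 reached 1 FPKM in the 48 h library alone, so they could pass the filter only by being higher there. Of the other 6 members, 3 were higher and 1 lower for 48 h versus 24 h, and 4 were higher and 1 lower for 48 h versus dry seed. Over all kept loci the shares were 13.8% higher and 10.9% lower for 48 h versus 24 h. For 48 h versus dry seed they were 27.5% and 20.4%. Shares over all kept loci include loci that passed through their 48 h value alone, so they are not a like background for these 6. With a pseudocount of 5 FPKM, LOC_Os12g38010 and LOC_Os12g38051 fell under the 2-fold rule in both comparisons that involve 48 h, with log2 differences of 0.47 to 0.52. The highest value lay at 48 h for 5 of those 6 members, where 39.6% of all kept loci had theirs, and for the 4 others the filter fixed it.

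**Figure D4:**
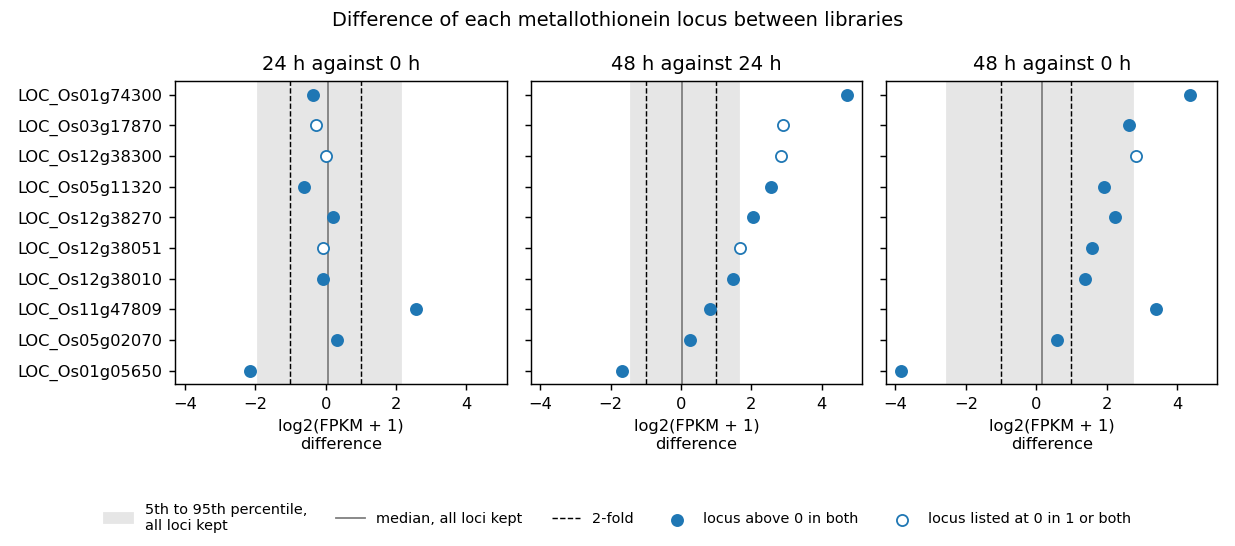
Difference in log2(FPKM + 1) of each metallothionein locus (rows) for 24 h versus dry seed, 48 h versus 24 h and 48 h versus dry seed, with the 5th to 95th percentile of all 20915 kept loci in grey, their median as a line and the 2-fold rule dashed. In the middle panel 7 loci lie right of the 2-fold line and LOC_Os01g05650 lies left of it, and open points mark loci listed at 0 in 1 or both libraries.

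Of the members, 2 are listed with 2 isoforms and the other 8 with 1. The isoform LOC_Os05g02070.3 was at 6816 FPKM in dry seed, 9179 FPKM after 24 h and 11797 FPKM after 48 h. LOC_Os05g02070.2 was at 2804, 2848 and 2705 FPKM at 0, 24 and 48 h. The higher level of the locus at the later times was thus carried in these tables by LOC_Os05g02070.3, whose share of the locus was 70.9% in dry seed, 76.3% after 24 h and 81.3% after 48 h. LOC_Os12g38270.1 held all of its locus at 0 h and 24 h and 89.5% at 48 h, where LOC_Os12g38270.2 was at 0.86 FPKM. How reads common to both isoforms were divided is not visible in the tables.

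The loci most like the leading members were found by Euclidean distance in log2(FPKM + 1) over the 3 libraries, which measures likeness of level as well as of course. LOC_Os09g01000 on chromosome 9 lay nearest to LOC_Os05g02070, at a distance of 0.53, with 13374 FPKM in dry seed, 10626 FPKM after 24 h and 16166 FPKM after 48 h. LOC_Os09g01000 was lowest at 24 h, whereas LOC_Os05g02070 was higher at each step. LOC_Os03g46770 and LOC_Os01g10400 followed at distances of 1.04 and 2.18, also with courses unlike that of LOC_Os05g02070. LOC_Os03g46770 was lower at each step, at 10003, 9143 and 7474 FPKM at 0, 24 and 48 h. LOC_Os01g10400 was highest at 24 h, at 2713, 11774 and 6377 FPKM. Nearest to LOC_Os01g05650 was LOC_Os07g34589 on chromosome 7, at a distance of 0.95, with 19981 FPKM in dry seed, 8121 FPKM after 24 h and 1185 FPKM after 48 h. LOC_Os02g06640 and LOC_Os11g47760 followed at 1.58 and 2.45. They were near level from 0 h to 24 h, at 7406 and 7393 FPKM and at 3512 and 3629 FPKM. At 48 h they were at 1326 and 1453 FPKM. With so few loci at these levels, and with 3 libraries, a short distance describes these values only.

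In the order of level within the dry seed, LOC_Os01g05650 and LOC_Os05g02070 were followed by LOC_Os05g11320, LOC_Os11g47809, LOC_Os01g74300 and LOC_Os12g38270, and the other 4 loci lay between 0 and 0.24 FPKM. In the germinated seed the order ran LOC_Os05g02070, LOC_Os01g05650, LOC_Os05g11320, LOC_Os11g47809, LOC_Os01g74300 and LOC_Os12g38270, with the other 4 loci between 2.19 and 6.52 FPKM. After 24 h the 6 most abundant loci stood in the order of the germinated seed except that LOC_Os12g38270, at 1.21 FPKM, stood above LOC_Os01g74300, at 0.65 FPKM. Neighbours in these orders cannot be separated by a spread, since each level is 1 value. The pairs LOC_Os11g47809 and LOC_Os01g74300 at 45.0 and 42.5 FPKM, and LOC_Os03g17870 and LOC_Os12g38300 at 6.52 and 6.20 FPKM, were the closest of the germinated seed apart from LOC_Os12g38010 and LOC_Os12g38051.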

How the data were processed

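Whole-seed RNA at 0, 24 and 48 h of imbibition gave 1 library each, pooled from 3 biological replicates per the series design text. The authors deposited FPKM per transcript isoform to 2 decimals. Per the file headers these come from isoform-level output, and the submitters' processing notes name RSEM 1.1.11, edgeR 2.3.52 and FastQC with no roles. Aligner, genome build and annotation: not given in the sources used here.

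Isoforms (66338) were summed per locus, the 20915 loci reaching 1 FPKM in any library were kept, and log2(FPKM + 1) differences of at least 2-fold were called. That scale understates changes of low loci. No test was run on these data. The size rule was run on simulated levels in which only more abundant loci were changed, each by more than 2-fold. That run cannot show how the rule performs for the low members or under real replicate spread. All 10 members were to be named, with the 3 loci nearest to each of the 2 most abundant, and chromosome 12 loci between the members there if at 100 FPKM. The members, lists and alternatives were chosen with earlier results of these data known. Of the 39387 genes in the reference table, 0 matched a member, so other genes of metal handling, seed markers and sequences are not reported. Python 3.11.15, numpy 2.4.6, pandas 2.3.3 and matplotlib 3.10.9 were used.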

Additional observations from a re-analysis of the deposited data

How the results depend on the processing

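No paired analysis was possible because every stage had a single pooled library, and no replicate could be left out. Of 197 alternative values of the 19 member differences past 2-fold, 187 kept their sign and stayed past the rule, 10 fell under it and 0 reversed. Of 115 alternative values of the 11 differences under 2-fold, 5 passed it. Many of these values could not change, so the counts do not measure stability. Other filters and the chromosome 12 unit leave the value of a locus as it was. So does taking the main isoform of a locus listed with 1 isoform. A filter of 5 FPKM dropped LOC_Os12g38010 and LOC_Os12g38051, which are then missing from the counts. In counts of members, a pseudocount of 0.1 FPKM gave 2 lower for 24 h versus dry seed, where 4304 of 20915 kept loci were lower. The added locus was LOC_Os03g17870, which is listed at 0 at 24 h. A 4-fold rule gave 0 lower for 48 h versus 24 h, where 415 of 20915 kept loci were lower. It gave 5 higher for 48 h versus dry seed, where 2164 kept loci were higher. Equal sums without LOC_Os09g00999 gave 2 higher for 24 h versus dry seed, with LOC_Os05g02070 at 1.003. Of the 21463 loci kept under that scaling, 6297 were higher. The chromosome 12 members as 1 unit gave 4 higher for 48 h versus 24 h and 5 for 48 h versus dry seed, since fewer units were counted. Without LOC_Os05g02070 the family sum was 19177, 4388 and 2084 FPKM at 0, 24 and 48 h, and its log2 differences were -2.13 for 24 h versus dry seed, -1.07 for 48 h versus 24 h (a reversed sign) and -3.20 for 48 h versus dry seed. Under the other alternatives these sums stayed within 1.5 times and their differences under 2-fold, although the sign for 48 h versus dry seed turned to 0.17 with equal sums without LOC_Os09g00999. Over all kept loci, 3701 were higher and 3213 lower for 24 h versus dry seed as deposited, and 5989 and 1716 with equal sums. For 48 h versus dry seed these were 5760 and 4265, and 8776 and 2471. For 48 h versus 24 h they were 2883 and 2274, and 4413 and 1585 when LOC_Os09g00999 was left out of the equal sums. Without read totals, the counting error of values near 0 is unknown.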
